A study of Mus musculus with 30 samples.

Results

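The resting spleen of lincRNA-Cox2 mutant mice was set against the resting spleen of wild type mice. The comparison rests on 4 of the 30 libraries of the series, 2 from mutant spleen and 2 from wild type spleen, and on all 18845 readable entries of the spleen table. All animals were C57BL/6 mice of 8 weeks. The mutant group carries the genotype label lincRNA-Cox2 Mutant and received PBS (2 libraries). The knockout group, labelled lincRNA-Cox2 knockout, also received PBS and is given beside the mutant where it helps to read a value (2 libraries). The wild type group received PBS (2 libraries) and serves both genotypes, so the mutant and knockout comparisons share their control libraries. Other mice of the series received lipopolysaccharide (LPS) at 20 mg/kg for 6 h, and lungs were profiled too. The labels do not say how either allele was made, which sex the mice were, or whether the 2 libraries of a group came from separate animals.

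LincRNA-Cox2, a long noncoding RNA, lies near Ptgs2, the gene of the inducible cyclooxygenase that starts prostaglandin synthesis, and is known as a regulator of inflammatory and interferon-stimulated genes in macrophages. The spleen filters blood: its red pulp holds macrophages, erythroid cells and monocytes, its white pulp holds B and T lymphocytes, and a mesothelium-covered capsule encloses it. Interferon-stimulated genes are transcribed after type I interferon activates a transcription factor complex that binds a short DNA element with repeated GAAA, and many of them are expressed at a low level in uninfected tissue.

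The deposited values are group means of normalized counts, so most genes have 1 value per group and no spread between replicates. Estimated totals were 7.65 and 2.38 M reads in the mutant libraries, 8.95 and 3.98 M in the knockout libraries and 8.33 and 6.38 M in the wild type libraries. A gene with 0 reads could still have a level at which 3 reads over both libraries would be awaited, a mean of up to 1.11 in the mutant, 0.826 in the knockout and 0.73 in wild type. Markers of the expected splenic cells were present in both genotypes, with group means of 3190 in mutant and 2490 in wild type for Cd79a, a B cell receptor subunit, and of 2590 in mutant and 2330 in wild type for Hmox1, the haem oxygenase of red pulp macrophages. For 69 entries, whose wild type means were deposited with 6 decimals, the reads of the 2 wild type libraries could be told apart. These libraries were not alike in all of them. In 18 of the 69 entries the deeper wild type library was at least 2-fold above the shallower one. In 0 of the 69 was it the other way round, although the median ratio over the 69 was 1.07. The 69 are not a random draw of genes. They hold all 12 entries with a DESeq2 adjusted p under 0.1 for knockout over wild type in the authors' deposited table. All 12 are among the 18, so the share of 18 in 69 cannot be carried over to all genes.

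LincRNA-Cox2 itself, listed at chr1:150159043-150164948 of GRCm38 under the RefSeq name Ptgs2os2, had a mean of 0 in mutant spleen, 0 in knockout spleen and 2.13 in wild type spleen. The wild type mean stands for 9 reads, 6 in the deeper library and 3 in the shallower one. At the wild type level the mutant libraries would have held 5.77 reads and the knockout libraries 7.73, and each group had 0. Against the limit of 3 reads over the group, mutant spleen held at least 1.92-fold less of the RNA than wild type spleen, and for knockout spleen the bound was at least 2.58-fold lower. These bounds leave out the counting error of the 9 wild type reads. The authors' deposited table gives a log2 fold of -0.82 with a DESeq2 adjusted p of 1.

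Ptgs2, at chr1:150100031-150108234 and 50.8 kb from lincRNA-Cox2, was low in every group. Its mean was 5.13 in mutant spleen, 1.29 in knockout spleen and 8.89 in wild type spleen. These means stand for 18 and 1 reads in the deeper and shallower mutant libraries, 2 and 2 reads in the knockout libraries, and 27 and 11 reads in the wild type libraries. In the authors' deposited table the mutant over wild type log2 fold of Ptgs2 was -0.32, with a DESeq2 adjusted p of 1. None of the 24 prostanoid pathway genes measured (the mutant or the wild type mean reached 10, a limit used throughout) was 2-fold apart, and their median log2 ratio of mutant over wild type was -0.15. Ptges, the inducible prostaglandin E synthase, had a mean of 68.7 in mutant and 118 in wild type, and Pla2g4a, the phospholipase that releases arachidonic acid, 63.3 in mutant and 104 in wild type. Ptgs1, the constitutive cyclooxygenase, stood at 227 in mutant and 253 in wild type. Among 14 measured genes around the locus on chromosome 1 the median log2 ratio was -0.05, and 0 were 2-fold apart. The lowest of these with a mean above 20 was Rgs1, a regulator of G-protein signalling in lymphocytes, at 77.7 in mutant and 144 in wild type.

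No gene passed the authors' test. For mutant over wild type, 0 of 18357 entries (0.0%) had a DESeq2 adjusted p under 0.05 in the authors' deposited table, and 0 (0.0%) had one under 0.1. Unadjusted p-values were not used here. The adjusted p was exactly 1 for 18334 entries in the authors' deposited table and below 1 for 23, of which 22 were lower (0.12% of entries with an adjusted p) and 1 was higher in the mutant. The smallest value, 0.254, was shared by Mid1, Ifi44 and Mmp3 in the authors' deposited table. Against the same wild type libraries, the knockout had 5 of 3124 entries (0.16%) under 0.05 in the authors' deposited table, all lower in the knockout: Ifit1, Ifi44, Irf7, Mmp3 and Slfn4. Adjusted p-values were given for 3124 entries there and for 18357 in the mutant comparison, so the 2 counts of calls are not directly comparable. The deposited log2 folds of these 5 genes ran from -1.59 to -2.25 in the mutant and from -1.86 to -2.45 in the knockout. Between knockout and mutant 0 of 18185 entries (0.0%) passed 0.05 in the authors' deposited table with DESeq2. Everything that follows about mutant against wild type is a description of size: the log2 ratio of the 2 group means, each raised by a pseudocount of 1.

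Most genes lay close to equality. Of the 13393 measured entries, 81.1% lay within 0.5 of a log2 ratio of 0, and the median was 0.00. At least 2-fold apart were 634 entries (4.73%), of which 227 (1.69%) were higher and 407 (3.04%) were lower in the mutant. Several gene groups were represented at the 2 ends, though most of the higher and most of the lower entries lay outside them. Of the 227 higher entries, 33 were in the list of acinar pancreas genes and 56 had symbols that start with Hist; of the 407 lower entries, 37 were in the interferon lists, 24 in the hepatocyte list and 14 in the adipocyte list. By the same measure the knockout had 115 entries higher (0.861%) and 403 lower (3.02%) than the same wild type libraries, and mutant lung had 76 higher (0.513%) and 142 lower (0.959%) than wild type lung with PBS. Among entries with a mean of at least 50 in mutant or wild type, the 10 highest ratios were those of Tff2, Pla2g1b, Ctrb1, Sycn, Dmbt1, Ctrl, Rnase1, Cela3b, Cpa1 and Clps, with log2 ratios of 5.84 to 4.57, and most of these encode products of the exocrine pancreas. The 10 lowest were those of Alb, Mup21, Mup20, Mug1, Ahsg, Gc, Pzp, Bhmt, Cps1 and Apob, from -6.53 to -5.66, and these are genes of the liver. In the plot of group means the listed groups leave the diagonal in opposite directions while the bulk of the spleen transcriptome stays on it.

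**Figure D1:**
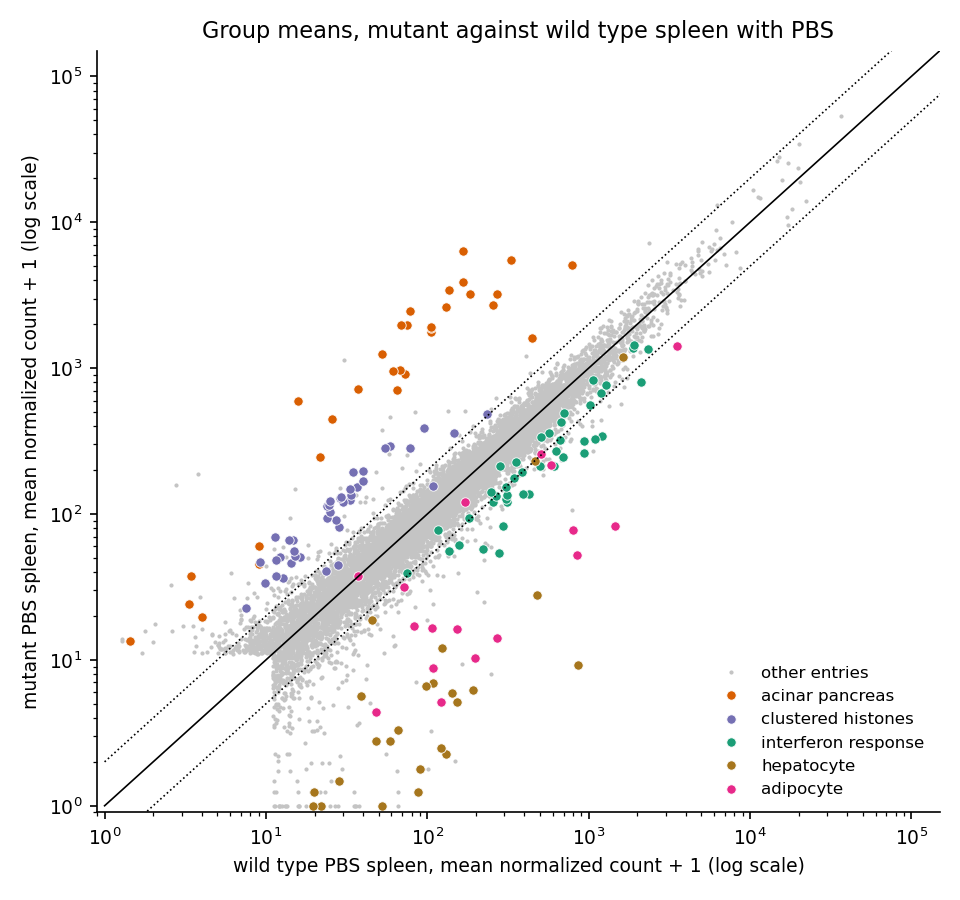
Group means of normalized counts (plus 1, log axes) in mutant PBS spleen (vertical) and wild type PBS spleen (horizontal) for the 13393 measured entries; the solid line marks equality and dotted lines 2-fold. Acinar pancreas and clustered histone genes lie above the diagonal, and interferon response, adipocyte and hepatocyte genes below it.

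Interferon-stimulated genes were lower in mutant spleen than in wild type spleen as a group. All 42 measured members of the interferon response list had a log2 ratio below 0, where 49.3% of all entries did, and 22 of the 42 were at least 2-fold lower, where 3.04% of all entries were. Their median log2 ratio was -1.02, against 0.00 over all entries. No member passed the authors' test. The summed level of the list was 0.39% of the total in the mutant, 0.38% in the knockout and 0.787% in wild type.

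Ifi44, an interferon-induced cytoplasmic protein, had the lowest ratio: its mean was 52.8 in mutant, 53.2 in knockout and 275 in wild type, a log2 ratio of -2.36. Ifit1, which binds viral RNA that lacks the host cap methylation, had means of 259 in mutant, 213 in knockout and 940 in wild type. Irf7, the transcription factor that amplifies type I interferon production, had means of 343 in mutant, 274 in knockout and 1205 in wild type. In these 3 genes the mutant and knockout means lie near each other and wild type stands several-fold above both.

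Oasl2 and Oas2, of the oligoadenylate synthetase family that senses double-stranded RNA, had mutant means of 326 and 136, against 1091 and 389 in wild type. Isg15, a ubiquitin-like modifier, had 269 in mutant and 631 in wild type, and Rsad2, the antiviral enzyme viperin, had 799 in mutant and 2120 in wild type. At the near end of the list stood Parp14, at 823 in mutant and 1070 in wild type, a log2 ratio of -0.38. All of these had adjusted p-values between 0.254 and 1 in the authors' deposited table.

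Genes induced by interferon gamma, many of which type I interferon also induces, showed a similar median. Of 30 measured members 29 were below 0 and 15 were at least 2-fold lower, with a median log2 ratio of -0.97. Iigp1, an immunity-related GTPase, had a mean of 268 in mutant, 366 in knockout and 1070 in wild type. Gbp2, a guanylate-binding protein, had 570 in mutant, 451 in knockout and 1590 in wild type, and the chemokine Cxcl9 had 185 in mutant, 200 in knockout and 517 in wild type. The immunoproteasome and peptide transporter genes lay near equality, with Psmb8 at 811 in mutant and 872 in wild type and Tap1 at 878 in mutant and 1020 in wild type. Ciita, the activator of MHC class II transcription, was the 1 member above 0, at 588 in mutant and 370 in wild type. Ifng, the gene of interferon gamma itself and not a member of this list, had a mean of 21.1 in mutant, 13.0 in knockout and 11.8 in wild type. In resting lung, where the same 2 genotypes were compared with other libraries, the median log2 ratio of the interferon response list was -0.84 and that of the interferon gamma list -0.51.

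In 6 members of the interferon response list the difference leaned on 1 wild type library. Only these 6 had wild type means kept to 6 decimals, which gave single-library values. All 6 are among the 12 entries with a DESeq2 adjusted p under 0.1 for knockout over wild type in the authors' deposited table. Their log2 ratios, from -2.36 to -1.51, lay towards the low end of the list, whose median was -1.02. Ifit1 had a mutant mean of 259, against 1436 in the deeper and 444 in the shallower wild type library. Ifi44 had a mutant mean of 52.8, against 424 in the deeper and 127 in the shallower wild type library. Irf7 had a mutant mean of 343, against 1939 in the deeper and 470 in the shallower wild type library. The mutant mean thus lay below both wild type libraries for each of the 6, but the deeper library was severalfold above the shallower one. Over all 69 resolved entries the mutant mean lay below both in 35. The median log2 ratio over the 6 was -1.82 with both wild type libraries, -0.74 without the deeper one and -2.45 without the shallower one. Which of the 2 labelled wild type samples is the deeper library is not known, and the part of this library in the ratios of the other members was not tested.

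Further genes, chosen after their values were seen, were also higher in the deeper wild type library. Slfn4, a Schlafen gene of the myeloid lineage, had a mutant mean of 106 and a knockout mean of 88.2, against 1431 in the deeper and 149 in the shallower wild type library. Ms4a6d had a mutant mean of 28.4, against 362 in the deeper and 44.3 in the shallower wild type library. Fpr2, a formyl peptide receptor of neutrophils and monocytes, had a mutant mean of 47.7, against 371 in the deeper and 75.2 in the shallower wild type library. Other myeloid genes did not follow this order: Ltf, lactoferrin of neutrophil granules, had a mutant mean of 489, against 599 in the deeper and 839 in the shallower wild type library, and Elane, neutrophil elastase, a mutant mean of 111, against 110 in the deeper and 141 in the shallower wild type library.

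Mmp3, a matrix metalloprotease, had a mutant mean of 17.7, against 167 in the deeper and 31.4 in the shallower wild type library. Il1rn, the interleukin 1 receptor antagonist, had a mutant mean of 60.2, against 394 in the deeper and 72.4 in the shallower wild type library. Against the shallower library alone the log2 ratio of mutant over wild type was -0.49 for Slfn4, -0.26 for Il1rn and -0.46 for Irf7. Of the 18 entries at least 2-fold higher in the deeper wild type library, 17 had a mutant mean below both wild type libraries. The 35 such entries among all 69 include these 17. The 18 were picked for a high wild type library. They also hold the 12 entries with a DESeq2 adjusted p under 0.1 for knockout over wild type. The 17 of 18 is therefore a description and no separate support for a lower mutant level. The other of the 18 was Retnlg, a neutrophil gene, at 126 in mutant and at 213 and 97.1 in the deeper and shallower wild type libraries.

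**Figure D2:**
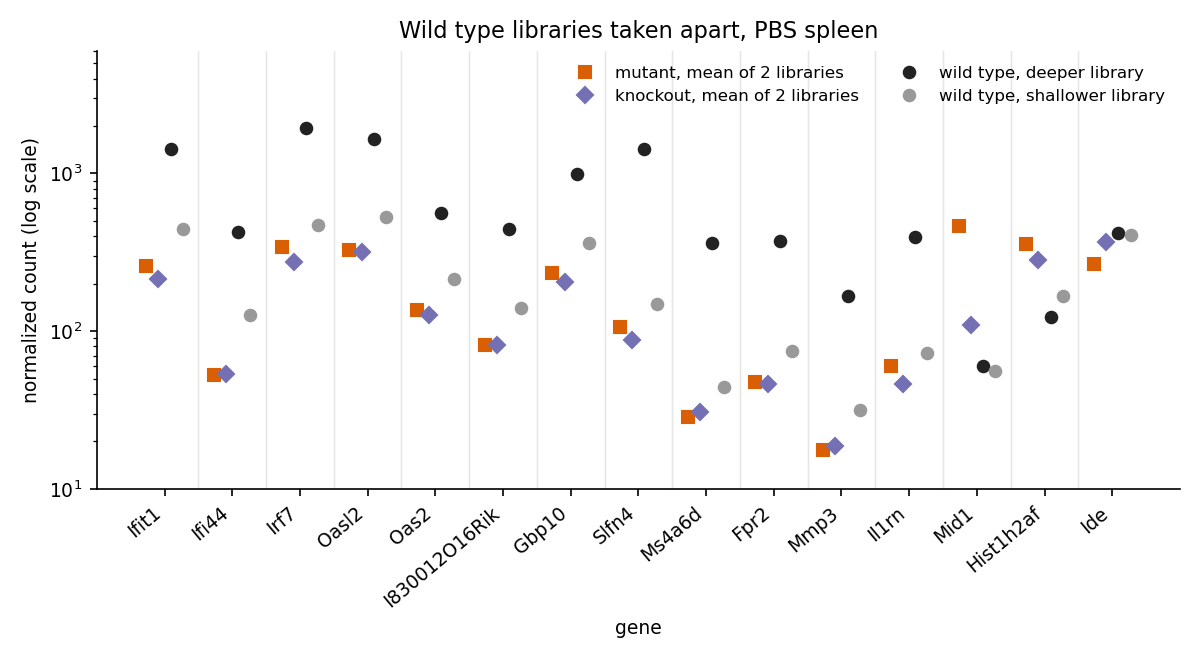
Normalized count (log axis) of 15 genes in PBS spleen: the mean of the 2 mutant libraries, the mean of the 2 knockout libraries, and the deeper and shallower wild type libraries one by one. For the first 12 genes the deeper wild type library lies far above the shallower one, with the mutant mean below both; for Mid1 and Hist1h2af the mutant mean lies above both wild type libraries, and for Ide below both.

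The upstream sequences of 4 interferon response genes are shown because they carry the repeated GAAA element through which such genes are known to be induced. The motif GAAA, any pair of bases, GAAA and its reverse complement (TTTC, any pair of bases, TTTC), so that both strands were covered, were searched in the 250 bases upstream of each gene's start, with overlapping matches counted, in the RefSeq windows of GRCm38.p6. The element was found in 15 of 29 measured interferon response members with a window (51.7%) and in 936 of 27025 genes with a window (3.46%). Each stretch of 100 bases below reads along the gene's strand, and capitals mark the matches.
Ifit1, chr19:34640764-34640863, plus strand: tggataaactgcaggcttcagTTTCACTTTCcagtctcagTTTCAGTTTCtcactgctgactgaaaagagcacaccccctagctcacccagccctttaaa
Ifit3, chr19:34583367-34583466, plus strand: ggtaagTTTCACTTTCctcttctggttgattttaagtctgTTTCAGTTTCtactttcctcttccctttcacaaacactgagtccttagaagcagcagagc
Isg15, chr4:156200825-156200924, minus strand: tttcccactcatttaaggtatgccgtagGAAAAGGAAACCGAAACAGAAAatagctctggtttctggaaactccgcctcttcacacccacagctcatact
Rsad2, chr12:26456513-26456612, minus strand: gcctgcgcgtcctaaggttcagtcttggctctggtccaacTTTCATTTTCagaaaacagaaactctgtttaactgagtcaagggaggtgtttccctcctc
Isg15 holds 3 overlapping matches in 1 run, Ifit1 and Ifit3 hold 2 matches each and Rsad2 holds 1. The windows of Ifi44, Irf7, Oasl2, Slfn4 and Phf11d held no match to these letters. A match describes the sequence and shows no binding, and genes with and without a match were lower in the mutant.

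Genes of monocytes and neutrophils were lower in the mutant to a smaller extent. All 24 measured members had a log2 ratio below 0, with a median of -0.53, and 6 were at least 2-fold lower. Il1r2, the decoy receptor of interleukin 1, had a mean of 20.3 in mutant and 64.8 in wild type. Ly6c2, a marker of inflammatory monocytes, had 314 in mutant and 768 in wild type, and Cxcr2, the chemokine receptor of neutrophils, 78.3 in mutant and 188 in wild type. Genes of granulocyte precursors lay nearer to equality, with Mpo at 315 in mutant and 342 in wild type and Elane at 111 in mutant and 126 in wild type. In bulk tissue, fewer cells of a type and less RNA per cell cannot be told apart.

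Most chemokine genes had a lower mean in the mutant. Of 20 measured chemokine genes 19 were below 0, with a median log2 ratio of -0.59. Ccl2, which recruits monocytes, had a mean of 10.0 in mutant and 33.6 in wild type, and Ccl3 had 8.48 in mutant and 28.3 in wild type. Ccl19, a ligand that guides T cells into the white pulp, was the 1 member above 0, at 545 in mutant and 347 in wild type. Cxcl13, which guides B cells into follicles, had 599 in mutant and 1170 in wild type. Inflammatory cytokine genes went both ways, with 10 of 15 measured members below 0 and 5 above it. Tnf had a mean of 23.0 in mutant, 24.3 in knockout and 52.6 in wild type, while Ltb, lymphotoxin beta, had 1150 in mutant and 916 in wild type. Cytotoxic genes lay on the same side, with 18 of 20 below 0 and a median of -0.38. Gzmb, the granzyme B of natural killer and T cells, had 29.3 in mutant, 25.3 in knockout and 103 in wild type.

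Lymphocyte and translation genes lay slightly on the other side. Of 18 B cell genes 17 were above 0 (50.1% of all entries were), with a median log2 ratio of 0.31, and Cd79b, a B cell receptor subunit, had a mean of 2370 in mutant and 1920 in wild type. Of 27 T cell genes 25 were above 0, with a median of 0.36, and Lck, the kinase of the T cell receptor, had 694 in mutant and 497 in wild type. Of 64 ribosomal protein genes 62 were above 0, with a median of 0.40. None of the members of these 3 lists was 2-fold apart. The knockout over wild type medians were 0.38 for the B cell list, 0.27 for the T cell list and 0.40 for the ribosomal protein list, from comparisons that share the wild type libraries.

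Stromal and capsular genes were lower in the mutant. Of 33 genes of stroma and endothelium 29 were below 0, with a median log2 ratio of -0.47, and Dcn, a small proteoglycan of fibroblasts, had a mean of 684 in mutant and 1320 in wild type. The mesothelial list had a median of -0.73 over 15 genes, with Upk1b at 67.0 in mutant and 144 in wild type. The megakaryocyte list had 20 of 22 genes below 0 and a median of -0.50. Red pulp macrophage genes went both ways, with 12 of 22 below 0 and a median of -0.16. Marco, a scavenger receptor of marginal zone macrophages, had a mean of 435 in mutant and 1050 in wild type, and Spic, the transcription factor of red pulp macrophages, 301 in mutant and 614 in wild type, while Cd163, the haemoglobin scavenger receptor, had 184 in mutant and 128 in wild type. Erythroid genes had a median of 0.15.

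**Figure D3:**
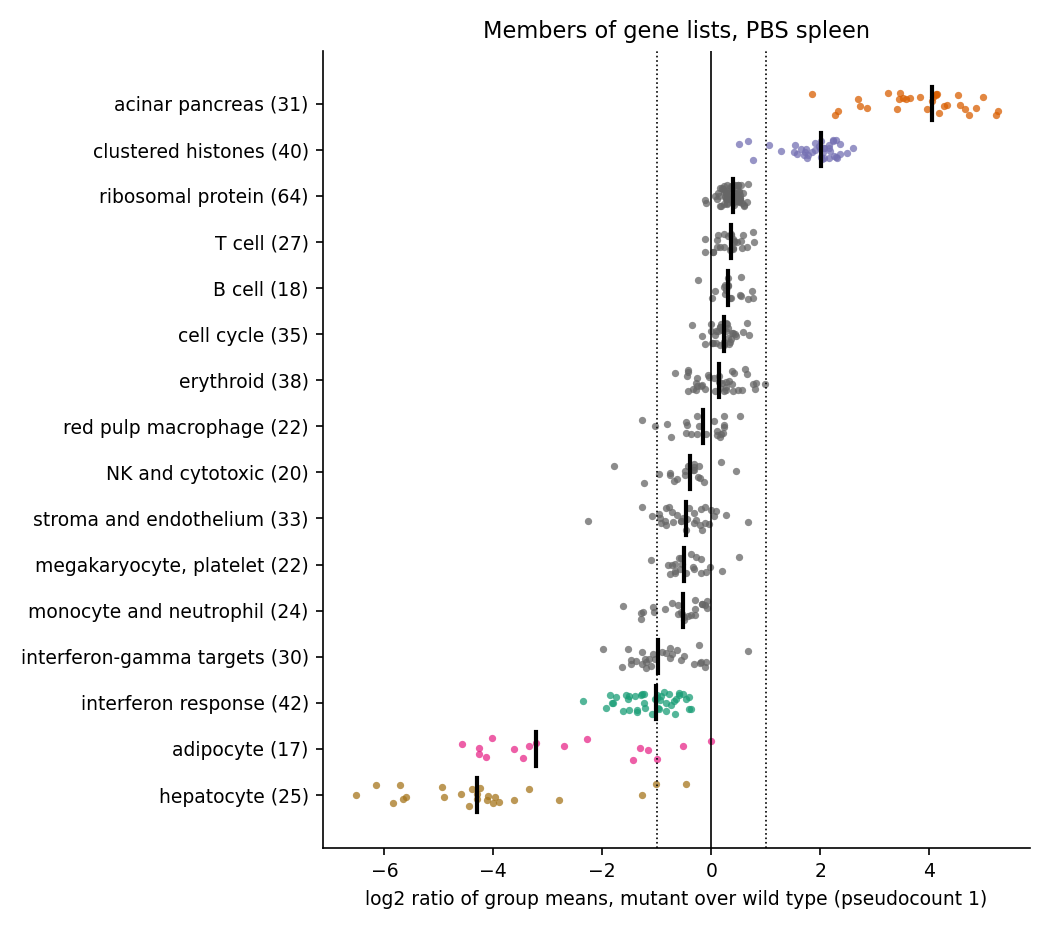
Log2 ratio of group means, mutant over wild type PBS spleen, for each measured member (points) of 16 gene lists, with the median of each list (bar) and the number of members in brackets; dotted lines mark 2-fold. The medians run from -4.29 for hepatocyte genes to 4.05 for acinar pancreas genes, with the lymphocyte lists just above 0 and the interferon lists near -1.

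Mid1 was the 1 gene with an adjusted p below 1 in the authors' deposited table that was higher in the mutant. It lies at chrX:169685199-169990798 and encodes a microtubule-associated ubiquitin ligase. Its mean was 464 in mutant, 110 in knockout and 58.1 in wild type, 7.98 times the wild type mean. The wild type libraries lay close together, at 60.2 and 56.1, so that the choice of wild type library moved its log2 ratio only between 2.93 and 3.03. How the mutant mean of Mid1 divides between the mutant libraries could not be read. In the authors' deposited table its log2 fold was 2.38, with a DESeq2 adjusted p of 0.254.

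Mid1 was also higher in other mutant libraries. With LPS, Mid1 had a mean of 2185 in mutant spleen, 599 in knockout spleen and 207 in wild type spleen, and the authors' deposited table gives a DESeq2 adjusted p of 8.45e-06 for mutant over wild type. In resting lung it had 384 in mutant, 226 in knockout and 160 in wild type. In lung with LPS it had 2019 in mutant, 840 in knockout and 407 in wild type, and the authors' deposited table gives a DESeq2 adjusted p of 2.41e-05 for mutant over wild type. The order mutant, knockout, wild type thus held in all 4 sets of libraries. Mid1 spans the end of the region shared by the X and Y chromosomes in mice, and Xist, the RNA of the inactive X, stood at 4040 in mutant and 2470 in wild type, while the Y gene Ddx3y stood at 227 in mutant and 198 in wild type. Both RNAs were thus present in both resting groups. With LPS they were split: Xist had a mean of 4670 in mutant, 33.7 in knockout and 31.3 in wild type spleen, and Ddx3y had 14.0 in mutant, 601 in knockout and 705 in wild type spleen. In lung with LPS, Xist had 4510 in mutant, 23.2 in knockout and 14.5 in wild type, and Ddx3y had 4.73 in mutant, 1130 in knockout and 1150 in wild type. In the LPS comparisons of mutant with wild type, sex and genotype therefore cannot be told apart for Mid1, and in the resting groups the part of the sexes was not tested.

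Ide, the insulin-degrading enzyme, was another gene outside the wild type spread, as were most of the 69 resolved entries. Over the 69, the mutant mean lay below both wild type libraries in 35, above both in 25 and between them in 9. Its mean was 265 in mutant and 367 in knockout, against 421 and 408 in the deeper and shallower wild type libraries. In the authors' deposited table its DESeq2 adjusted p was 1 in resting spleen and 0.0154 in LPS lung for mutant over wild type. In that LPS lung comparison sex and genotype cannot be told apart for Ide either.

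Clustered histone genes, whose messenger RNAs end in a stem-loop and mostly lack a poly(A) tail, were higher in the mutant. All 40 measured members were above 0 and 37 were at least 2-fold higher, where 1.69% of all entries were, with a median log2 ratio of 2.02. Hist1h3a had a mean of 68.2 in mutant, 25.7 in knockout and 10.4 in wild type, and Hist1h1a had 282 in mutant, 102 in knockout and 53.7 in wild type. Hist1h1c, the most abundant member, had 485 in mutant, 264 in knockout and 233 in wild type. The knockout lay between: its median over wild type was 0.72. None passed the authors' test, and reads of near-identical histone copies cannot be assigned with certainty.

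Cell cycle genes, a list that mixes genes of several phases, did not show a ratio of that size: 0 of 35 were 2-fold apart and their median was 0.23. The part of cell division in the histone ratios was not tested. From the list of long noncoding RNAs, 3 RNAs known to lack a poly(A) tail, chosen after their values were seen, were also higher in the mutant. Rpph1, the RNA of ribonuclease P, had a mean of 1210 in mutant, 884 in knockout and 408 in wild type, and Rmrp, the RNA of ribonuclease MRP, had 623 in mutant, 409 in knockout and 264 in wild type. Malat1 had 28000 in mutant, 22800 in knockout and 15100 in wild type, a log2 ratio of 0.89. Of the 17 measured members of that list, 12 were above 0 and 5 below. Kcnq1ot1 and Lars2, with log2 ratios of 1.10 and 1.05, lay above Malat1. Lars2 was counted in that list although it is a protein-coding gene. In resting lung the authors' deposited log2 folds of mutant over wild type were -0.37 for Rpph1, -0.28 for Rmrp and -0.65 for Malat1. The part of the poly(A) tail in the ratios of the histone genes and these RNAs was not tested. Another 3 histone symbols were low enough in the mutant for its libraries to be told apart: Hist1h1t, Hist2h2ab and Hist3h2bb-ps had 6 reads in the deeper and 13 in the shallower mutant library. After division by depth these sums were 2.90 in the deeper and 20.2 in the shallower mutant library, against a summed wild type mean of 2.98. For the sum of these 3 genes the shallower mutant library alone lay above wild type. Gene by gene, on very few reads, the deeper mutant library was above the wild type mean for Hist1h1t (0.483 against 0) and Hist2h2ab (0.967 against 0.496). It was below the wild type mean for Hist3h2bb-ps (1.45 against 2.48). Over all 4459 entries resolved in this way the sums were 13863 in the deeper and 12179 in the shallower mutant library. How the 40 measured members divide between the mutant libraries could not be read.

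Genes of acinar pancreas, liver and fat marked the ends of the distribution. A low member of such a list counts as measured only through the group where it is high and then has to differ, so the counts and medians describe the measured members: 31 of 37 acinar, 25 of 27 hepatocyte and 17 of 20 adipocyte genes listed. With every member found in the table the medians were 3.75, -4.27 and -2.70 in that order of lists. Digestive enzymes of the acinar pancreas, which touches the spleen, were higher in the mutant: all 31 measured members were at least 2-fold higher, with a median log2 ratio of 4.05. Ctrb1, chymotrypsinogen B, had a mean of 6390 in mutant, 673 in knockout and 166 in wild type. Cela1, a pancreatic elastase, had 3210 in mutant, 835 in knockout and 269 in wild type. Their summed level was 1.53% of the total in the mutant, 0.241% in the knockout and 0.107% in wild type, and the insulin genes Ins1 and Ins2 were at 0 in all 3 groups. In the authors' deposited table the log2 fold of Ctrb1 is 0.84, with a DESeq2 adjusted p of 1. Prss1 and Reg3b, low enough to be resolved, had 1 read in the deeper and 12 reads in the shallower mutant library. For these 2 members the mutant mean thus came almost wholly from the shallower library.

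Hepatocyte genes were lower in the mutant: 24 of 25 measured members were at least 2-fold lower, with a median log2 ratio of -4.29. Alb, serum albumin, had a mean of 8.27 in mutant, 97.1 in knockout and 855 in wild type. Only members with a mutant mean under 10 could be resolved in the mutant, and 16 were. Their depth-corrected sums were 31.9 in the deeper and 65.4 in the shallower mutant library, against a summed wild type mean of 1474. Low sums in both mutant libraries follow from that choice of members. They do not show how the whole list divides between the libraries. The wild type libraries differed here too. Cyp3a11, a liver cytochrome P450, was at 36.1 in the deeper and 5.61 in the shallower wild type library, with no read in the mutant.

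Adipocyte genes were lower as well, with 14 of 17 at least 2-fold lower and a median of -3.21. Adipoq, adiponectin, had a mean of 13.2 in mutant, 120 in knockout and 271 in wild type, and Cidec, a lipid droplet protein, had 9.29 in mutant, 71.9 in knockout and 196 in wild type. Fabp4, the fatty acid binding protein of fat cells, had 77.2 in mutant, 409 in knockout and 794 in wild type. Among the 5 resolved members, again the low ones, the deeper mutant library had 65 reads and the shallower one 1 read, with depth-corrected sums of 31.4 in the deeper and 1.56 in the shallower library, against a summed wild type mean of 282. In resting lung the medians for mutant over wild type were -3.47 for acinar pancreas genes, -2.66 for hepatocyte genes and 0.30 for adipocyte genes. Acinar genes thus lay on the other side there. The part of tissue taken along at dissection in any of these ratios was not tested.

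**Figure D4:**
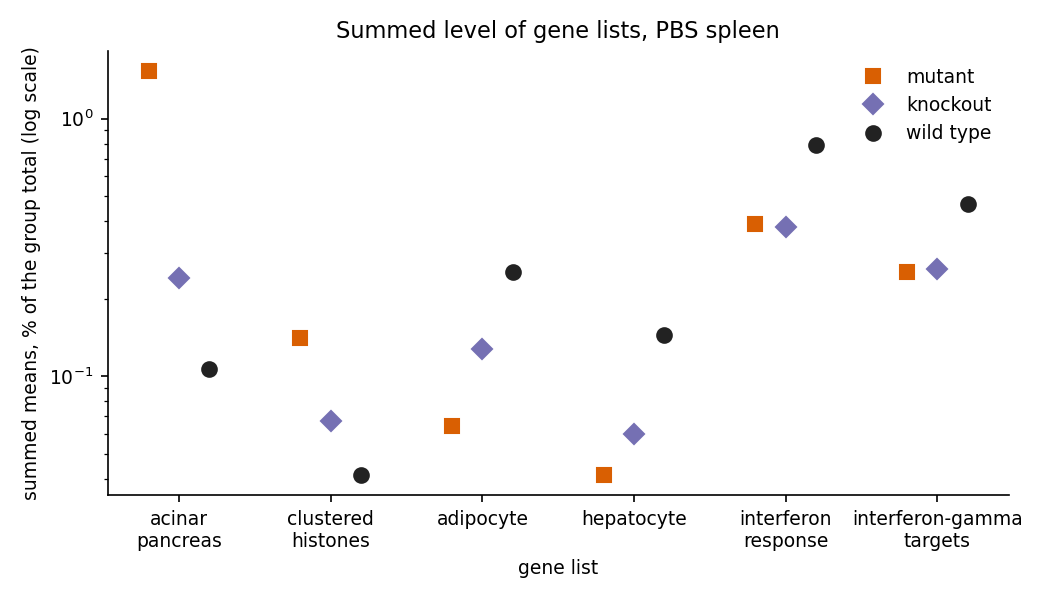
Summed group means of 6 gene lists as percent of the group's total (log axis) in mutant, knockout and wild type PBS spleen, 1 value per group. The knockout lies between mutant and wild type for acinar, histone, adipocyte and hepatocyte genes, and beside the mutant for both interferon lists.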

How the data were processed

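Messenger RNA libraries of spleen were prepared with Illumina kits, per the labels' protocols. The submitters' processing notes name the mm10 genome, DESeq2, STAR 2.5.3a, bedtools, SAMtools and Bowtie2 without settings; whether strand was used in counting is not given in the sources used here. Per the file headers, the deposited table holds group means, a normalized signal (counts divided by size factors), and for each comparison a log2 fold, an adjusted p-value and a call mark, both treated as a score. The authors' deposited log2 folds run mutant over wild type (1112 of 1112 entries with means over 50 and a log2 ratio of at least 0.5 had the same sign) and are pulled towards 0. Of 18850 lines, 5 broken ones were left out, 1026 split symbols were rejoined and 24 date-like symbols stay unnamed; lists use 1 entry per symbol, counts all entries. Log2 ratios use a pseudocount of 1, in entries whose mutant or wild type mean reached 10. Depth came from the steps between low means, since 1 read adds a fixed amount; all low values of the 3 resting spleen groups were whole combinations within 0.5%. Wild type means with 6 decimals were solved to 1 pair of whole reads for 69 of 72 entries (tolerance 1.5e-06), and mutant means under 10 likewise. On simulated wild type spleen means of 18845 entries, steps were found in 9 of 10 groups and 541 of 554 pairs were solved correctly. Mutant means above 10 keep 3 digits, so no fit on single libraries could be made. P-values measure only the spread between these samples, which may be technical; floors cover counting error only. The text names lincRNA-Cox2, Ptgs2, the 10 highest and lowest ratios and up to 5 members per list; genes with an adjusted p below 1 or with single-library reads, and further list members given as examples, were chosen after their values were seen. The members and the 43 lists were chosen with earlier results of these data known. Python 3.11.15, pandas 2.3.3 and NumPy 2.4.6 were used.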

Additional observations from a re-analysis of the deposited data

How the results depend on the processing

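The count of genes passing the authors' test stayed at 0 at a DESeq2 adjusted p under 0.1 or 0.01, with low means left out and with unclear symbols left out. The number of entries at least 2-fold apart, 634 (227 higher, 407 lower), was 300 (101 and 199) by the authors' deposited log2 folds, 1367 (526 and 841) with no filter on low means and 307 (118 and 189) with a mean of at least 50; other pseudocounts and scalings kept it within 1.5 times. By the authors' deposited table the median log2 fold was 0.83 for acinar pancreas genes, -0.73 for hepatocyte genes and -1.79 for adipocyte genes. The median log2 ratios of group means were 4.05, -4.29 and -3.21 in that order. Deposited folds of entries at least 2-fold apart were in the median 0.7 to 0.819 of the log2 ratio, by range of mean. These lists were thus pulled towards 0 more strongly than is usual for such entries, and the reason was not tested. Over 6 interferon response genes the median ran from -2.45 to -0.74 when either wild type library was left out, an alternative chosen after seeing the data. No direction of a leading list turned. A test on single-library reads and leaving out libraries for the calls were not run, because mutant means keep 3 digits. No paired analysis was possible because the labels share no replicate numbers between groups and the table holds group means. Depth limits low genes: 0 reads in the mutant group allow a mean of up to 1.11.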

Other observations

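Heat shock genes were lower in mutant spleen than in wild type spleen. All 17 measured members had a log2 ratio below 0, with a median of -0.46, and 2 were at least 2-fold lower. Hspa1b, an inducible 70-kDa chaperone gene, had a mean of 39.4 in mutant, 45.0 in knockout and 96.0 in wild type, and Hspa5, the chaperone of the endoplasmic reticulum, had 1720 in mutant, 2140 in knockout and 2690 in wild type. In resting lung the median of the list was -0.43.

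The highest ratios outside the acinar list belonged to secreted digestive tract proteins. Tff2, a trefoil peptide, had a mean of 158 in mutant, 17.9 in knockout and 1.77 in wild type, and Pla2g1b, the pancreatic phospholipase A2, had 188 in mutant, 22.1 in knockout and 2.78 in wild type. Hba-a2, an alpha globin gene, had 34300 in mutant, 18300 in knockout and 20100 in wild type. For mutant over wild type, Tff2, Pla2g1b and Hba-a2 are each listed in the authors' deposited table with a DESeq2 adjusted p of 1.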
